A study of Mus musculus with 12 samples.

Results

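The 9 genes described here are titin (Ttn), nebulin (Neb), the M-band gene Obsl1, the striated muscle kinase gene Speg, the myomesins Myom1 and Myom2, the Xin repeat genes Xirp1 and Xirp2, and Ccdc141, the chromosomal neighbour of Ttn. They were chosen by symbol, with earlier results of these data known, and all 9 were found among the 24528 genes of the deposited table. RNA was sequenced from bulk gastrocnemius, a calf muscle, of male mice aged 4 months, with 6 KO and 6 WT animals and 1 library per mouse. KO mice carried Ank2f/f, the floxed alleles of the ankyrin-B gene, together with HSA-Cre+, a Cre transgene active in skeletal muscle fibres. WT mice were littermates with the same Ank2f/f alleles and no Cre, so effects of Cre itself and of the deletion cannot be told apart. The tissue also holds vessels, nerve and connective tissue, which that driver does not target.

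The sarcomere, the contractile unit of striated muscle, is held in register by a few very large proteins. Titin spans from the Z-disc at the edge to the M-band in the middle and acts as a spring and scaffold. Nebulin runs along the thin actin filament, while myomesins cross-link titin and myosin at the M-band. Xin repeat proteins bind actin at attachment sites, and ankyrins tie membrane proteins to the cytoskeleton.

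Values are the authors' log2 values per gene and library, and changes are KO minus WT on that scale with the standard error (SE) of a limma fit. A gene is said to have risen or fallen where its limma p, adjusted by the Benjamini-Hochberg method over 12216 tested genes, was at or under 0.05. This held for 757 genes, 6.20% of those tested, with 3.12% higher and 3.08% lower in KO. The count was 1513 without KO 2 and 190 to 365 without any 1 of KO 1, KO 3, KO 6, WT 1, WT 2, WT 3, WT 5 and WT 6. Ank2 itself was lower in every KO library, at 7.54 to 8.03 against 8.40 to 9.22 in WT libraries (change -1.15, SE 0.14, limma adjusted p = 0.00088). Estimated depth was 13397011 to 18705715 reads in KO and 12283779 to 16907425 in WT. The library KO 2 stood nearest to WT on the axis of largest variance (a principal component over the 500 genes that varied most), at -2.32, against 3.60 to 16.1 in the other KO libraries and -11.2 to -4.66 in WT libraries. The defining markers of skeletal muscle fibres, which include Acta1, Ckm and Myh4, summed to 225169 to 252795 estimated reads per 1000000 in KO and 221260 to 262449 in WT. Of 5 markers that define heart muscle, Nppa and Myl7 were under 3 estimated reads in every library. The 5 summed to 4.15 to 19.4 estimated reads per 1000000 in KO and 5.99 to 10.5 in WT. Of these markers 2 were tested, and neither passed.

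The promoters of Ccdc141, Obsl1 and Ttn are shown because the first gene rose, the second had the next largest estimate, and the third lies beside Ccdc141 on the same strand. Each runs 5′ to 3′ from 250 bases before to 50 after the annotated start (RefSeq, GRCm38.p6). Capitals mark matches, on either strand, to the E-box CANNTG, bound by myogenic helix-loop-helix factors, and to the motif of MEF2, a muscle transcription factor.
Ccdc141 (chr2:77170586-77170885, minus strand): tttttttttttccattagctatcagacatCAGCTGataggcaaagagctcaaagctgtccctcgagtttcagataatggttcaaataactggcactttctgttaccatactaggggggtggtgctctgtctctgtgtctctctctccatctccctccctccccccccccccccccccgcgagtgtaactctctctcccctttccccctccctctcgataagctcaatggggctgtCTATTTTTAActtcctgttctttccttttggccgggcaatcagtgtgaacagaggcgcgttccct
Obsl1 (chr1:75506403-75506702, minus strand): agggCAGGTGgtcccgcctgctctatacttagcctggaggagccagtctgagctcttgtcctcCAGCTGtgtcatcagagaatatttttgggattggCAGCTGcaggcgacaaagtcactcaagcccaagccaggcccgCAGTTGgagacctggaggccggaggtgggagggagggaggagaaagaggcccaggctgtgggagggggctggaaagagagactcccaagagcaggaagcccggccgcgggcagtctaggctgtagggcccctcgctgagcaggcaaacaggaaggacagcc
Ttn (chr2:76982498-76982797, minus strand): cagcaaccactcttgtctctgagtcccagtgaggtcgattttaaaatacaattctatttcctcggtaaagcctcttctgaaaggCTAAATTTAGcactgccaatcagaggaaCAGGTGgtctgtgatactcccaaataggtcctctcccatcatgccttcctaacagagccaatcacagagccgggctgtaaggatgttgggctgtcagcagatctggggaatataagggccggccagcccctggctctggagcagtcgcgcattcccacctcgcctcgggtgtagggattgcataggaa

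Of the 9 genes, 6 had a promoter in that table. An E-box stood in all 6 of them and in 72.3% of 32851 promoters. A MEF2 match stood in 4 of the 6, those of Ccdc141, Ttn, Xirp2 and Speg, and in 3.19% of all promoters. The other motifs searched were the CArG box (1 of 6 genes; 1.63% of promoters), the M-CAT element CATTCC (2 of 6; 14.7%), the GC box GGGCGG (1 of 6; 35.7%) and TATAAA (0 of 6; 13.6%). Matches to different motifs did not overlap in these promoters. Speg has several annotated starts, so its chance of a match is higher than that of a gene with 1 start.

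Ccdc141 was the only member that passed the test, and it was far higher in KO than in WT. It encodes a coiled-coil protein studied in mouse for its part in neuronal migration, and it lies at chr2:77009902-77170636 on the minus strand (mm10). Its log2 values ran from 6.98 through a median of 7.71 to 7.80 in KO libraries, and from 6.44 through 6.72 to 6.92 in WT libraries. All 6 KO libraries lay above all 6 WT libraries, and KO 2, the lowest of them, stood just above the highest WT library. Ccdc141 rose by 0.90 (SE 0.12, limma adjusted p = 0.00217), the ninth-smallest p of all tested genes, and its exact permutation p of 0.00216 is the smallest that 6 against 6 libraries can give. The deposited scale compresses differences of low genes. In scaled reads, Ccdc141 reached 364% ± 106 of the WT mean in KO, and the WT libraries spread by ± 30.2 around that mean (SD, n = 6 each). Estimated reads numbered 42.1 to 163 per KO library and 18.0 to 37.0 per WT library, so it passed the filter of 10 reads in both groups, though not one of 50. With limma-voom on the estimated reads the change was 1.92 (adjusted p = 0.00599), and without any single library the adjusted p stayed between 3.38e-06 and 0.00734.

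With Ccdc141, 1 of the 9 members passed, against the 6.20% of all tested genes given above. KO and WT libraries did not overlap in 1 of the 9 members, Ccdc141, and in 2.47% of tested genes. Before adjustment, 3 members, Ccdc141, Obsl1 and Xirp1, and 26.0% of tested genes were within the 0.05 limit of the limma p. The median change was 0.014 over the 9 members and -0.0090 over all tested genes.

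**Figure D1:**
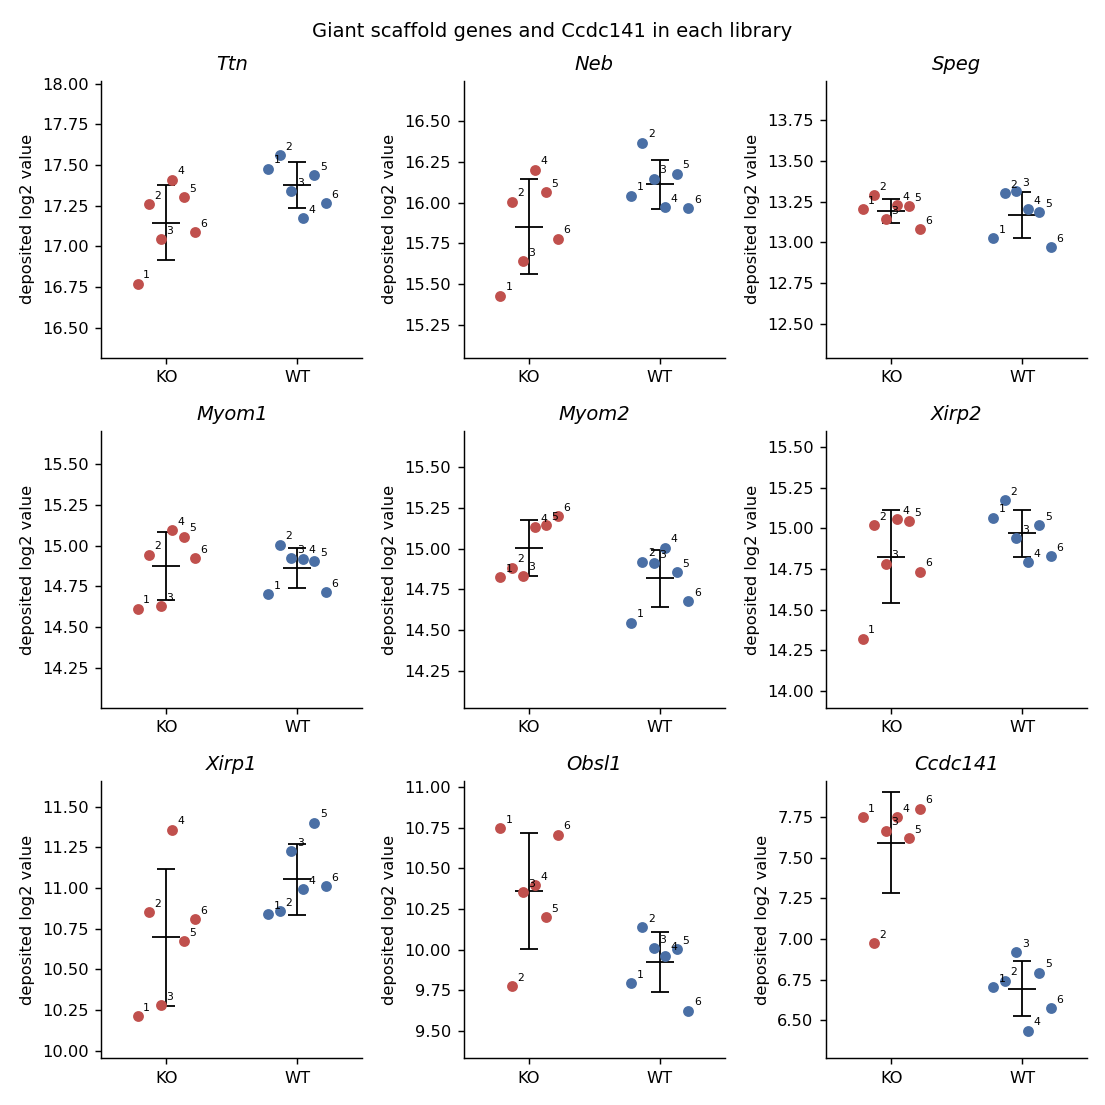
Deposited log2 value of each of the 9 genes in every library, with KO left and WT right; small digits are replicate numbers, bars are mean and SD (n = 6 each), and every panel spans the same range of log2 units. KO and WT points separate only for Ccdc141, where KO 2, at 6.98, lies nearest to WT.

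In bulk tissue, fewer cells of a type and less RNA per cell cannot be told apart, and other markers differed between the groups as well. The 7 markers of developing or regenerating fibres include Actc1, Myh3 and Myh8. The summed level of the 7 was 201 to 2040 estimated reads per 1000000 in KO and 119 to 528 in WT. In this list 4 of the 7 rose, while of all tested genes 3.12% rose and 3.08% fell. Actc1 and Myh8 were among the 4, and Myh3 was not (limma adjusted p = 0.092). Actc1 no longer passed without any 1 of 10 libraries, and Myh8 without any 1 of 11. Actc1 was lowest in KO 2 among the KO libraries, at 11.36 against 13.39 to 14.75 in the other KO libraries and 10.33 to 12.81 in WT libraries. The summed level of 9 slow-fibre markers was 77.3 to 1151 in KO and 415 to 4548 in WT, with none of the 9 past the test and a median change of -1.86. Smooth muscle markers summed to 62.7 to 73.1 in KO and 60.6 to 128 in WT (1 of 4 lower), endothelial markers to 182 to 308 in KO and 216 to 328 in WT (1 of 5 lower), and adipocyte markers to 82.7 to 146 in KO and 80.5 to 156 in WT (1 of 3 tested lower). Fibroblast markers summed to 348 to 681 in KO and 253 to 693 in WT, and macrophage markers to 10.4 to 31.9 in KO and 7.51 to 36.4 in WT, with none of 5 past the test in either list. That of 5 Schwann cell markers was 15.2 to 323 in KO and 41.1 to 153 in WT, with none past the test. That of 5 satellite cell markers was 23.2 to 28.9 in KO and 30.1 to 33.7 in WT, with 1 of 4 tested genes lower. The part of these markers in the level of Ccdc141 was not tested.

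None of the other genes tested around Ccdc141 rose. Ttn begins 27355 bases away on the side of lower coordinates, and Sestd1, a spectrin-domain gene, lies 9704 bases away on the other side, both on the same strand. Sestd1 averaged 7.99 ± 0.27 in KO and 7.94 ± 0.15 in WT (SD, n = 6 each), which differ by 0.053 (limma SE 0.11, adjusted p = 0.794). Among the 9 tested genes from Rbm45 to Zfp385b, Osbpl6, an oxysterol-binding protein gene named here after its values were seen, was the other gene that passed, and it fell by 0.88 (SE 0.17, limma adjusted p = 0.0133). Zfp385b, beyond Sestd1, gave 0.31 (SE 0.10, adjusted p = 0.0799).

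**Figure D2:**
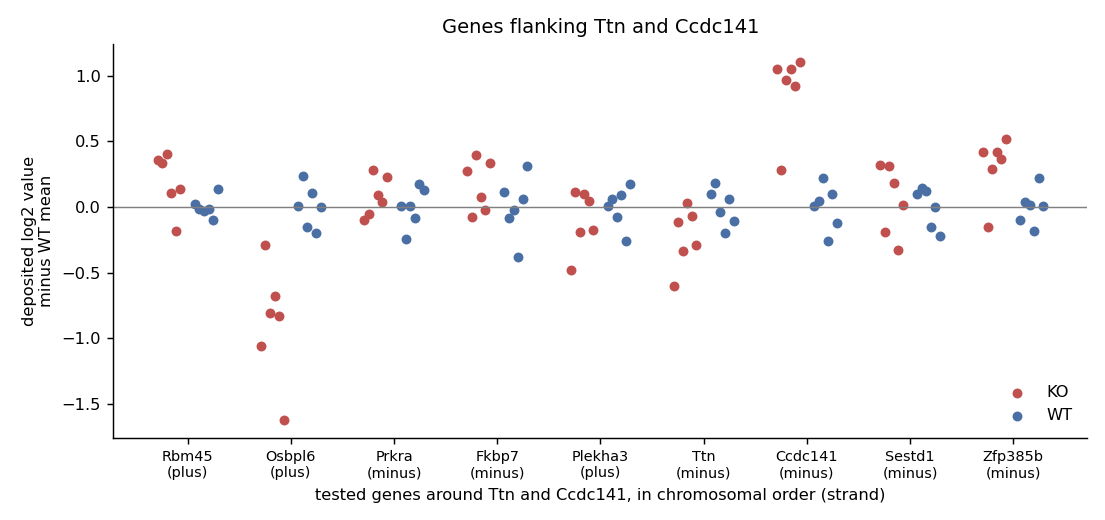
Deposited log2 values, less the WT mean of each gene, of the 9 tested genes within 500000 bases of Ttn and Ccdc141, in chromosomal order; each point is a library, KO left and WT right. Ccdc141 stands above and Osbpl6 below the WT points, while KO and WT points overlap for Ttn and Sestd1.

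Obsl1 had the next largest estimate, but it did not pass. Its protein binds titin and myomesin at the M-band, and the gene lies at chr1:75479310-75506452 on the minus strand. Its log2 values ran from 9.78 through a median of 10.37 to 10.75 in KO libraries, and from 9.62 through 9.98 to 10.14 in WT libraries. In 5 of the 6 KO libraries Obsl1 lay above every WT library, and KO 2 lay inside the WT range. The change was 0.44 (SE 0.14, limma adjusted p = 0.0703; exact permutation p = 0.026, two-sided and for this gene alone). Without KO 2 it was 0.56 (adjusted p = 0.00505), while without any other single library it did not pass. The 3 partners of Obsl1 in the 3M complex of ubiquitin ligation, Cul7, Ccdc8 and Fbxw8, did not pass either, with changes of 0.15, 0.010 and -0.024 (limma adjusted p = 0.392, 0.958 and 0.872). Inha, an inhibin gene 625 bases from Obsl1 on the opposite strand, gave 0.28 (SE 0.11, adjusted p = 0.118), and Chpf, 3 bases away on the other side, gave 0.045 (adjusted p = 0.781).

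Speg, the kinase gene whose protein is found at the triad junctions of muscle, was nearly level. It lies at chr1:75375297-75432320 on the plus strand. Log2 values ran from 13.08 through a median of 13.21 to 13.29 in KO libraries, and from 12.97 through 13.19 to 13.31 in WT libraries. The KO range lay inside the WT range. The change was 0.028, with a 95% interval from -0.15 to 0.20 (limma adjusted p = 0.861). A neighbour 285 bases upstream on the opposite strand, the gene model Gm15179, rose by 0.33 (SE 0.09, adjusted p = 0.0374), a call that ended without any 1 of 9 libraries, all but KO 2, KO 4 and WT 1, and with the correction for transcript length (adjusted p = 0.147).

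Titin and nebulin, the longest scaffolds, were somewhat lower in the KO mean, and neither passed. Ttn lies at chr2:76703980-76982547 and Neb at chr2:52136647-52378474, both on the minus strand. The longest annotated coding sequence is 105639 bases for Ttn and 21456 bases for Neb. Ttn values ran from 16.77 through a median of 17.17 to 17.41 in KO libraries, and from 17.17 through 17.39 to 17.56 in WT libraries. Neb values ran from 15.43 through 15.89 to 16.20 in KO libraries, and from 15.97 through 16.10 to 16.37 in WT libraries. In each gene KO 1, KO 3 and KO 6 lay below every WT library, and the other 3 KO libraries lay inside the WT range. The change was -0.23 for Ttn (SE 0.11, limma adjusted p = 0.206; 95% interval from -0.47 to 0.0073). For Neb it was -0.26 (SE 0.13, limma adjusted p = 0.202; 95% interval from -0.52 to 0.0058). Ttn held 0.978% ± 0.128 of all estimated reads in KO and 1.13% ± 0.138 in WT (SD, n = 6 each; exact permutation p = 0.0736).

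Change varied with exon length across all genes, which bears on the longest members. The median change was 0.12 among 230 tested genes of up to 1000 bases of merged exons and -0.13 among 93 genes above 20000 bases, the class of Ttn and Neb. Ttn, with 116825 bases of merged exons, was the second-longest of 11986 tested genes with a known length. After each library's trend with length was removed, Ttn gave 0.023 (SE 0.07, limma adjusted p = 0.866) and Neb gave -0.11 (adjusted p = 0.471). Few genes are as long as Ttn, so the trend there rests on a thin tail. Ccdc141 and Obsl1 gave 0.99 and 0.50 after the same correction (adjusted p = 0.00172 and 0.0592). Speg, Myom1 and Xirp2 gave 0.12, 0.093 and -0.052 (adjusted p = 0.308, 0.516 and 0.778). With quantile normalization Ttn moved the other way, to -0.38 (adjusted p = 0.117). The difference Neb minus Ttn was -1.29 ± 0.07 in KO and -1.26 ± 0.09 in WT (SD, n = 6 each), and KO minus WT was -0.029 (exact permutation p = 0.541). With the length correction it was -0.13 (exact permutation p = 0.0952), and with 1 library left out it ran from -0.063 to -0.0072.

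**Figure D3:**
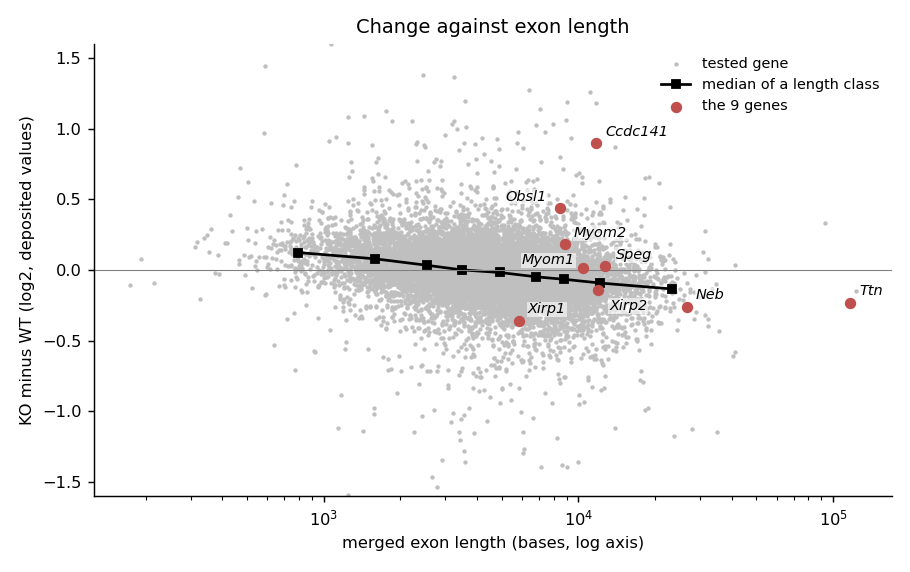
Change KO minus WT of tested genes against the length of their merged exons (log axis), with the median of each length class (squares) and the 9 genes in red; 14 genes lie outside the vertical axis. The medians run from 0.12 in the shortest class to -0.13 in the longest, and Ccdc141 stands above the trend.

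The genes of the M-band cross-linkers did not pass the test. Myomesin 1, the product of Myom1 (chr17:71002633-71126856, plus strand), ties myosin filaments together in all fibres, and M-protein, the product of Myom2 (chr8:15057653-15133541, plus strand), is typical of fast fibres. Myom1 values ran from 14.61 through a median of 14.93 to 15.10 in KO libraries, and from 14.70 through 14.91 to 15.01 in WT libraries. Myom2 values ran from 14.82 through 15.01 to 15.20 in KO libraries, and from 14.54 through 14.88 to 15.01 in WT libraries. In Myom2, KO 4, KO 5 and KO 6 lay above every WT library. In Myom1, KO 4 and KO 5 lay above and KO 1 and KO 3 below every WT library. The changes were 0.014 for Myom1 (SE 0.10, limma adjusted p = 0.948) and 0.18 for Myom2 (SE 0.10, limma adjusted p = 0.273).

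The 3 differences between genes within a library that were tested, which do not depend on its overall scaling, were chosen after the values were seen. The difference Myom2 minus Myom1 was 0.13 ± 0.13 in KO and -0.04 ± 0.08 in WT (SD, n = 6 each), with an exact permutation p of 0.0281, or 0.0844 adjusted over the 3 differences. Its unadjusted p exceeded 0.05 without any 1 of KO 1, KO 3, KO 6, WT 1 and WT 2 (0.0519 to 0.0563). The sum of 8 fast-fibre markers was 182451 to 207237 estimated reads per 1000000 in KO and 178270 to 214430 in WT. Myom3, the myomesin gene of slow and intermediate fibres, gave -1.15 (SE 0.48, limma adjusted p = 0.166). The slow-fibre markers described above had a median change of -1.86, with none past the test. Exons of Myom1 and of Myl12a, a myosin light chain gene on the opposite strand, share 207 bases, and the libraries do not mark strand. Myl12a had 80.8 estimated reads for every 1000 of Myom1 and gave -0.00099 (limma adjusted p = 0.996).

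The Xin repeat genes were lower in the KO mean and did not pass. Xirp1 (chr9:120013755-120023598, minus strand) encodes Xin, which is induced in injured muscle, and Xirp2 (chr2:67446002-67526614, plus strand) encodes myomaxin, a target of MEF2A in mouse. Xirp1 values ran from 10.21 through a median of 10.74 to 11.36 in KO libraries, and from 10.84 through 11.00 to 11.40 in WT libraries. The libraries KO 1, KO 3, KO 5 and KO 6 lay below every WT library, while KO 4 was close to the highest WT library. The change was -0.36 (SE 0.17, limma adjusted p = 0.191), and without KO 4 it was -0.49 and passed (adjusted p = 0.039). Xirp2 values ran from 14.32 through 14.90 to 15.06 in KO libraries, and from 14.79 through 14.98 to 15.17 in WT libraries, with a change of -0.14 (SE 0.12, limma adjusted p = 0.477). In Xirp2, KO 1, KO 3 and KO 6 lay below every WT library. The difference Xirp2 minus Xirp1 was 4.13 ± 0.29 in KO and 3.91 ± 0.29 in WT (SD, n = 6 each; exact permutation p = 0.221, or 0.331 adjusted over the 3 differences).

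**Figure D4:**
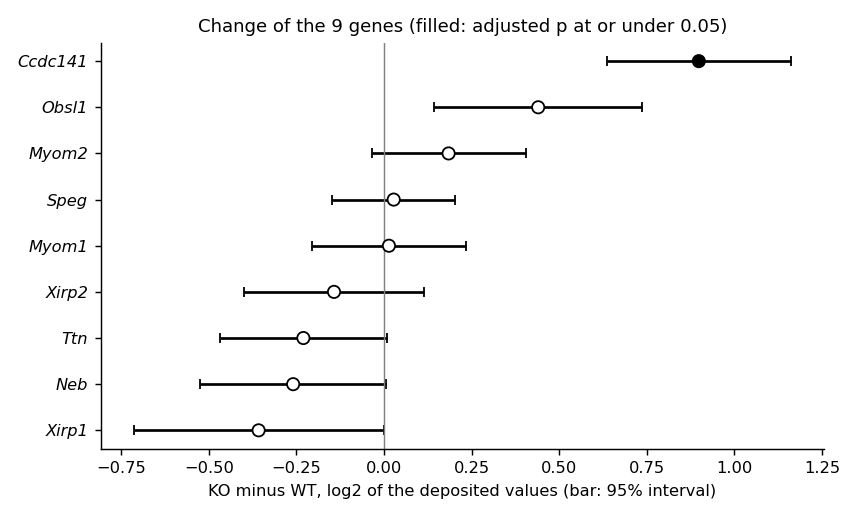
Change KO minus WT of the 9 genes on the deposited log2 scale, with 95% intervals of the limma fit that are not adjusted for the number of genes tested; filled circles have an adjusted p at or under 0.05. Ccdc141, at 0.90, is the filled circle, and the intervals of Speg, Myom1, Myom2, Xirp2, Ttn and Neb include 0.

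Levels between genes can be compared per length, as estimated reads per kilobase of merged exons and per 1000000 estimated reads. On that scale Myom2 averaged 248 ± 26.0 in KO and 216 ± 20.2 in WT, and Myom1 193 ± 21.8 in KO and 188 ± 14.7 in WT (SD, n = 6 each). Xirp2 averaged 164 ± 25.8 in KO and 178 ± 21.2 in WT, and Neb 151 ± 25.9 in KO and 177 ± 21.3 in WT. The range of each of these 4 genes overlapped that of the next within both groups. Compared within each library, Myom2 stood above Myom1 and above Neb in 12 of 12 libraries and above Xirp2 in 11, all but WT 1. Myom1 stood above Xirp2 in 11 libraries, all but WT 1, and above Neb in 11, all but WT 2. Xirp2 stood above Neb in 6 of 6 KO libraries and in 2 of 6 WT libraries. Ttn followed at 83.7 ± 10.9 in KO and 96.8 ± 11.8 in WT, Speg at 48.8 ± 2.27 in KO and 47.4 ± 4.47 in WT, and Xirp1 at 18.6 ± 5.74 in KO and 23.4 ± 4.59 in WT. Obsl1 averaged 9.99 ± 2.71 in KO and 6.90 ± 0.884 in WT, and its highest KO library reached the lowest KO library of Xirp1. Ccdc141 was the lowest of the 9 at 0.652 ± 0.197 in KO and 0.177 ± 0.0575 in WT. Merged exons include those of every annotated isoform, so the values of genes with many alternative exons, Ttn above all, are too low.

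The members varied together from library to library in part. With group means removed, Ttn and Xirp2 had a Pearson r of 0.97 over the 12 libraries, Ttn and Neb 0.94, Neb and Xirp2 0.92, and Neb and Myom1 0.88, the 4 highest of 36 pairs. The r of Obsl1 and Ccdc141 was 0.79, while that of Ttn and Ccdc141 was -0.07. These are descriptions: the points share the libraries, with their depth and their trend with length. KO 1 was the lowest library of all 12 in Ttn, Neb, Xirp1, Xirp2 and Myom1. KO 2 was the lowest KO library in both Obsl1 and Ccdc141, at 9.78 and 6.98 against KO means of 10.36 and 7.59. The r of 0.79 for this pair thus leans on KO 2, and an r without that library was not computed. By the same measure, the most alike of 12207 other tested genes was Atrnl1 for Ttn (r = 0.96), Pbrm1 for Neb (0.99), Rpgr for Obsl1 (0.94), Pcif1 for Speg (0.90) and Dhx30 for Ccdc141 (0.91). It was Abtb2 for Xirp1 (0.94), Kdm7a for Xirp2 (0.96), Szrd1 for Myom1 (0.98) and Gpd1 for Myom2 (0.96). Rpgr was also second for Ccdc141 (0.91).

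Among partners of titin and the M-band, 2 of 23 tested genes fell, against 3.08% of all tested genes. The median change was -0.036. Trim63, the ubiquitin ligase MuRF1 that binds titin near the M-band, fell by 0.44 (SE 0.09, limma adjusted p = 0.0115), with 11.42 ± 0.16 in KO and 11.87 ± 0.09 in WT (SD, n = 6 each). Capn3, the muscle calpain that binds titin, fell by 0.37 (SE 0.08, limma adjusted p = 0.0236), a call that ended without KO 3, KO 6, WT 2 or WT 3 (up to 0.0648) and left 1 fall on the list. The list held 3 calls without KO 2 or without WT 4. Beside Myom3, the largest estimates were those of the stretch-responsive Ankrd2 (-1.12, adjusted p = 0.261) and of Fhl1 (-0.98, adjusted p = 0.21). The KO and WT libraries of Ankrd2 overlapped widely, at 8.04 to 10.46 in KO and 8.93 to 11.56 in WT.

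Z-disc and Xin partners moved in both directions, with 2 rises and 3 falls among 26 tested genes and a median change of -0.027. Over all tested genes, 3.12% rose and 3.08% fell. Pdlim3, a PDZ and LIM protein gene of the Z-disc, rose by 0.62 (SE 0.15, limma adjusted p = 0.0277), and Vasp, an actin polymerization factor gene, rose by 0.39 (SE 0.11, limma adjusted p = 0.0467). Nrap, the gene of a nebulin-related protein of muscle attachment sites, fell by 0.57 (SE 0.14, limma adjusted p = 0.0336). Synpo, the synaptopodin gene, fell by 0.55 and Pdlim5 by 0.34 (limma adjusted p = 0.0395 and 0.0482). The call of Pdlim5 ended under 5 other settings (adjusted p = 0.0526 to 0.0715) and that of Vasp under 3 (up to 0.0536). The slow-fibre genes Csrp3 and Myoz2 gave -1.46 and -1.21 (limma adjusted p = 0.162 and 0.181), and Synpo2 gave -0.63 (adjusted p = 0.172). The list held 5 calls in all, but none without any 1 of KO 1, KO 3, KO 6, WT 2, WT 3 and WT 5, 1 without WT 1 or WT 6, 2 without KO 5 and 3 without WT 4.

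Among nebulin relatives and genes of thin filament length, Nrap and Kbtbd13 fell, 2 of 16 tested genes, with a median of 0.044. The share of falls over all tested genes was 3.08%. Kbtbd13, a ubiquitin ligase adaptor gene known from nemaline myopathy in humans, fell by 0.52 (SE 0.11, limma adjusted p = 0.0194), and its call ended without KO 6 (0.0539). Nrap lost its call without KO 1, KO 3, KO 5, KO 6, WT 1, WT 2, WT 3 or WT 5 (up to 0.0868). The count was thus 0 without KO 6 and 1 without KO 1, KO 3, KO 5, WT 1, WT 2, WT 3 or WT 5. The leiomodin gene Lmod2 gave 0.54, Tmod1 of the pointed-end cap gave -0.26, and the slow tropomyosin gene Tpm3 gave -1.87 (limma adjusted p = 0.388, 0.144 and 0.18).

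Of 15 tested genes of the thick filament, Mylk2, the skeletal myosin light chain kinase gene, fell by 0.59 (SE 0.14, limma adjusted p = 0.0244), and the list median was -0.11. That count of 1 stands beside falls in 3.08% of all tested genes. It was 0 without KO 3, KO 6, WT 2 or WT 3, was 2 without KO 2 and was 4 without WT 4. The slow myosin gene Myh7 gave -3.37 and the fast oxidative myosin gene Myh2 gave -1.40 (limma adjusted p = 0.128 and 0.269). Of 10 partners of Speg and of the triad, 1 rose, against 3.12% of all tested genes, with a list median of -0.20. This was Dnm2, the dynamin 2 gene of membrane fission, which rose by 0.28 (SE 0.07, limma adjusted p = 0.0375). That call ended with the replicate numbers as a block (0.0606), with limma-voom (0.055) and without KO 1, KO 3, KO 4, KO 6 or any 1 of the WT libraries (up to 0.0957). The list held no call without KO 1, KO 4, KO 6, WT 1, WT 2, WT 3, WT 5 or WT 6, and 2 calls without KO 2, KO 5 or WT 4. Pln, Jph1 and Bin1 of the triad gave -0.32, -0.30 and 0.29 (limma adjusted p = 0.0506, 0.181 and 0.133).

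Of 15 other giant cytoskeletal genes tested, 2 fell, against 3.08% of all tested genes, and the median change was -0.18, with 13 of 15 estimates below 0. Of the 93 tested genes above 20000 bases of merged exons, 10 fell, and the median of the 93 was -0.13 as given above. The 10 include Ank2 itself and the 2 genes that fell on this list, Dmd and Syne1. Dmd, the dystrophin gene, fell by 1.18 (SE 0.19, limma adjusted p = 0.00669), with 8.85 to 10.19 in KO libraries and 10.42 to 10.85 in WT libraries. Syne1, the gene of the nuclear anchor nesprin-1, fell by 0.61 (SE 0.12, limma adjusted p = 0.0116), with 9.93 to 10.57 in KO libraries and 10.64 to 11.01 in WT libraries. The KO and WT libraries of both genes did not overlap. Dst, Plec and Ubr4 gave -0.58, -0.34 and -0.30 (limma adjusted p = 0.0594, 0.182 and 0.139). The count was 4 without KO 2.

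Among 11 tested genes induced by stretch or load, Actc1 and Myh8 rose and Nrap fell, with a median of 0.26. The shares over all tested genes were 3.12% for rises and 3.08% for falls. Actc1, cardiac alpha-actin, rose by 2.53 (SE 0.63, limma adjusted p = 0.0437), and Myh8, perinatal myosin, rose by 1.18 (SE 0.30, limma adjusted p = 0.0415). Myh3, embryonic myosin, gave 0.86 (SE 0.28, limma adjusted p = 0.092). Csrp3 and Ankrd2, also on this list, went the other way, at -1.46 and -1.12 (limma adjusted p = 0.162 and 0.261). Of the 11 estimates, 7 lay above 0. With the replicate numbers as a block, neither Actc1 (0.0989) nor Myh8 (0.0709) passed, and with limma-voom Myh8 did not (0.107). The count of 3 was 6 without KO 2, was 1 without KO 4, WT 4, WT 5 or WT 6, and was 0 without KO 1, KO 3, KO 5, KO 6, WT 1, WT 2 or WT 3.

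**Figure D5:**
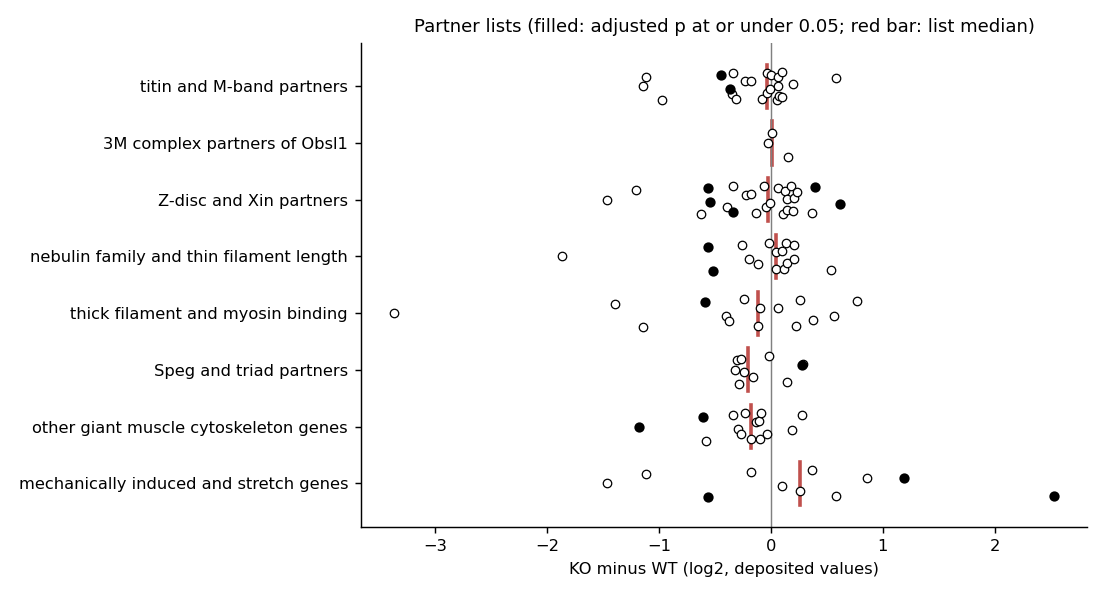
Change KO minus WT of each tested gene of the 8 partner lists; filled points have an adjusted p at or under 0.05, and red bars are list medians, which run from -0.20 to 0.26. Filled points lie on both sides of 0 among Z-disc and stretch genes, and below 0 among titin partners and other giant genes.

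Among the nearest tested genes on either side of Ttn, Neb, Myom1, Myom2, Xirp1 and Xirp2, members left aside, 2 passed. Over all tested genes, 3.12% rose and 3.08% fell. Rif1, beside Neb at 14264 bases, fell by 0.31 (SE 0.08, limma adjusted p = 0.0294), a call that ended without any 1 of 8 libraries, all but KO 2, KO 4, KO 5 and WT 4. Lpin2, a lipin gene 55704 bases from Myom1, rose by 0.40 (SE 0.11, limma adjusted p = 0.0375), a call that ended without any 1 of 9 libraries, all but KO 2, KO 4 and KO 5, and with limma-voom (0.055). Plekha3, 7152 bases from Ttn, gave -0.10 (adjusted p = 0.564). The flanking genes of Xirp1, Xirp2 and Myom2 did not pass.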

How the data were processed

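The authors deposited 1 table of 24528 genes with 1 log2 value per gene and library. The tools fastp, STAR and featureCounts and the build mm10 come from the submitters' processing notes; their versions, the annotation and the normalization were not stated. All columns have the same lowest value, 5.57, and the shape of a variance-stabilizing transformation. That form was inverted to scaled reads, and the commonest low value of each library was taken as 1 read. Of the values under 20 reads, 86.1% to 92.1% per library then lay within 0.1 of a whole number, so reads are estimates. They served the filter, depth, levels and some alternatives.

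The deposited log2 values were tested with limma 3.58.1 (R 4.3.3; trend, robust, group as the only term; two-sided) in genes that reached 10 estimated reads in 6 or more libraries. Single values were tested by exact permutation (scipy 1.17.1). The fit was tested on simulated data. Gene positions and lengths are from GENCODE M21. The 9 members, the partner lists and the markers were chosen with earlier results of these data known. The list rule named every passing gene and up to 3 more with the largest change. Alternatives changed scaling, scale, filter, moderation, block, length correction and libraries. A planned voom fit with TMM scaling was not run, since the table holds no counts; library totals were used in its place, chosen after seeing the data.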

Additional observations from a re-analysis of the deposited data

Results flagged for a closer look

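Ccdc141 in KO 2 was set apart from the other KO libraries, at a log2 value of 6.98 against 7.62 to 7.80 in KO 1, KO 3, KO 4, KO 5 and KO 6. Its gap to the nearest KO library was 0.779 of the KO range, above Dixon's 95% critical value for 6 samples. It was still above the WT libraries, at 6.44 to 6.92. This was 1 of 24 groups examined, where the limit is one that chance passes in about 1 in 20. The groups share the same libraries, so they are not independent. KO 2 also stood nearest to WT on the axis of largest variance, as given above. What set KO 2 apart was not tested.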

How the results depend on the processing

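Ccdc141 passed in every alternative that tested it, with changes from 0.85 to 1.02 when a library was left out. At 50 estimated reads it was not tested, so that count of members was 0. Ttn was 0.023 after the length correction, which removes the trend of long genes, and -0.38 with quantile normalization. Obsl1 (0.44) had an exact permutation p of 0.026, for this gene alone and not adjusted, against a limma adjusted p of 0.0703. Leaving out 1 library gave 190 to 1513 called genes, 1 or 2 called members, and changes of -0.28 to -0.16 for Ttn, -0.33 to -0.17 for Neb, 0.36 to 0.56 for Obsl1, -0.012 to 0.057 for Speg, -0.49 to -0.26 for Xirp1, -0.19 to -0.042 for Xirp2, -0.030 to 0.067 for Myom1, 0.13 to 0.22 for Myom2, and 0.14 to 0.21 for Myom2 minus Myom1. The differences Neb minus Ttn and Xirp2 minus Xirp1 ran from -0.063 to -0.0072 and from 0.14 to 0.30, and with the length correction were -0.13 and 0.27. The sign turned for Speg without WT 1 or WT 6 and for Myom1 without KO 4, KO 5, WT 1 or WT 6.

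The list counts, whose alternatives were chosen after seeing the data, ran over these omissions from 1 to 3 for titin partners, 0 to 5 for the Z-disc, 0 to 2 for nebulin relatives, 0 to 4 for the thick filament, 0 to 2 for the triad, 2 to 4 for giant genes and 0 to 6 for stretch genes. The Z-disc count was 3 without the filter and with the length correction. The thick filament count was 2 with quantile normalization, limma-voom, without trend and with the length correction. The triad count was 2 with quantile normalization and the length correction, and 0 with limma-voom. The planned TMM-scaled voom fit was not run. The cause was not tested.

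With the replicate numbers as a block, 813 genes were called and the stretch count was 1. Same-numbered libraries correlated from -0.36 to 0.29, and 2 of 6 KO libraries matched their own number best. These correlations of expression cannot decide whether the numbers pair the mice.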
